A study of Homo sapiens with 6 samples.

Results

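The genes described here were the netrins NTN1 and NTN4, the repulsive guidance molecules RGMA and RGMB, their receptors NEO1 (neogenin), UNC5A and UNC5B, and the death-associated protein kinases DAPK1, DAPK2 and DAPK3, that is, 10 of the 23617 gene symbols of the MDA-MB-231 table. They were chosen by symbol, and their 18 RefSeq transcripts were summed within each gene. MDA-MB-231 is a human breast cancer line of mesenchymal-like type, whereas HMLER consists of human mammary epithelial cells immortalized and transformed in culture. Cells of both lines were given decitabine (5-aza-2'-deoxycytidine, DAC, an inhibitor of DNA methyltransferases) at 10 µM each day and collected at 72 h, or were left untreated. RNA was sequenced from 1 DAC-treated and 1 untreated MDA-MB-231 library and from 2 DAC-treated and 2 untreated HMLER libraries, each made from a pool of extractions. The label of the untreated MDA-MB-231 library carries another line number in its cell line field, whereas its title gives MDA-MB-231, which was followed.

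Netrins are secreted, laminin-like proteins that guide growing axons and migrating cells. Neogenin and the UNC5 proteins are transmembrane receptors of netrin-1, and UNC5B is described as a dependence receptor, which triggers cell death when its ligand is missing and is held in check when netrin-1 is bound. RGMs are membrane-anchored proteins that bind neogenin and also act as co-receptors for bone morphogenetic proteins (BMPs). DAP kinases are calcium/calmodulin-regulated (DAPK1, DAPK2) or related (DAPK3) serine/threonine kinases that act in cell death, autophagy and contraction of the actomyosin cytoskeleton, and DAPK1 acts downstream of unbound UNC5B. The study asked whether inhibition of DNA methylation restores genes of this death pathway that are silenced in breast tumors.

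The sequences around gene starts are shown because DAC blocks the methylation of CpG dinucleotides, and the members differ in how many they hold. Promoter windows of 300 bases (250 before and 50 after the start, RefSeq, GRCh38.p14) were matched for 8 of the 10 members, in 16 entries. The others were NTN1 and UNC5B. Each sequence is written 5′ to 3′ on the gene's strand, with CpG in capitals. The 5′ end of a gene was taken as the edge of its listed locus, which can take in an overlapping gene. For UNC5B-AS1 this edge lay 84650 bases from its entry. RGMB, which was lower after DAC in MDA-MB-231, had 18 CpG in the entry nearest to its 5′ end in the table (chr5:98769186-98769485, plus strand). Its other entries had 12 and 28 CpG. NTN4 (chr12:95790715-95791014, minus strand) and DAPK1 (chr9:87497617-87497916, plus strand), which had nearly equal ratios in MDA-MB-231, had 40 and 37 CpG in their nearest entries. Their other entries had 21 and 33 CpG. UNC5B-AS1, an antisense RNA within UNC5B that was listed as higher in HMLER, had 2 CpG (chr10:71218179-71218478, minus strand).
RGMB: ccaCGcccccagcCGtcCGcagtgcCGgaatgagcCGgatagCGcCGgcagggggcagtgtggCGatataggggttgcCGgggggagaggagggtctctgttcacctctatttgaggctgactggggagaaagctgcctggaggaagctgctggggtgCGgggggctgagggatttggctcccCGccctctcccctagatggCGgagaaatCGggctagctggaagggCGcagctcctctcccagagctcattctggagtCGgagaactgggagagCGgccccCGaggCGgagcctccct
NTN4: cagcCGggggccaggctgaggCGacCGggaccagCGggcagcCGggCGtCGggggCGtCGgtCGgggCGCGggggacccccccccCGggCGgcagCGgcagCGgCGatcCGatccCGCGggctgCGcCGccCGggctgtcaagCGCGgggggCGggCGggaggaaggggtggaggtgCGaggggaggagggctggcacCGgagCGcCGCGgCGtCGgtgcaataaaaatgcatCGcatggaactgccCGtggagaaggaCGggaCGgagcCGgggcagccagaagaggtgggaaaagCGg
DAPK1: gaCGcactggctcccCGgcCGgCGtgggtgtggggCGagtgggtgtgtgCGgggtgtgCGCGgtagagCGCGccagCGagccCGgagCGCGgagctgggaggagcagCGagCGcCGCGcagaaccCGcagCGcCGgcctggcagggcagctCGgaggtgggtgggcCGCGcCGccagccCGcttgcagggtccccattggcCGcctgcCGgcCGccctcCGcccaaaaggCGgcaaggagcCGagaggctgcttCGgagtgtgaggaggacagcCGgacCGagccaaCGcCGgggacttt
UNC5B-AS1: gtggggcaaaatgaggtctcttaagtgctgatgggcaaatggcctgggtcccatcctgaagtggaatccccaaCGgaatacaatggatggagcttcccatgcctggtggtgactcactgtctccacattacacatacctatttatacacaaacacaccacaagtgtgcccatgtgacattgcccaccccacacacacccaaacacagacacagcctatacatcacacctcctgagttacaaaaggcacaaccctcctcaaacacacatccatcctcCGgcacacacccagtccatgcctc

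Over the 16 member entries the number of CpG ran from 6 to 50, against a median of 14 over all 35116 promoter entries. An observed/expected CpG ratio above 0.6 was found in 13 of the 16, against 48.85% of all entries. The RGMB entry shown was under this limit, at 0.556, as were RGMA entries at 0.2985 and 0.5971. The highest count was in an RGMA entry, with 50 CpG, and the lowest also in an RGMA entry, with 6 CpG. UNC5A had 44 CpG, DAPK3 40, NEO1 35 and DAPK2 33. The CG letters were counted without regard to methylation, which was not measured in these libraries. The DAPK3 entry starts 1271 bases from the 5′ end used in the table.

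**Figure D1:**
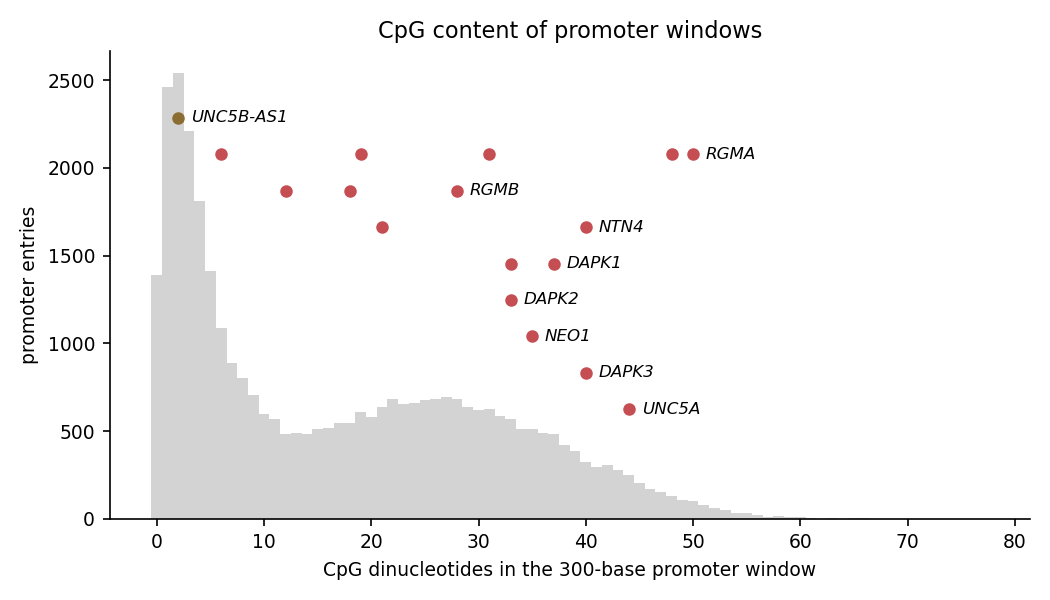
Number of CpG dinucleotides in each 300-base RefSeq promoter window (x axis) of the members matched and of UNC5B-AS1 (points, 1 per entry, placed at arbitrary heights), over the distribution of all 35116 entries (grey bars, y axis, number of entries). Members lie between 6 and 50 CpG, and UNC5B-AS1 at 2.

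The MDA-MB-231 table gives fragments scaled by transcript length and by the number of mapped fragments (FPKM) for each library, with the lower and upper bounds set by Cuffdiff. With 1 library per condition there is no replicate check, and no p-value is given. The low values of the table are whole multiples of what 1 read is worth, and 1 read on a transcript of 1 kilobase of effective length was worth 0.0235 FPKM in the untreated and 0.0236 FPKM in the DAC library, a ratio of 1.01. Numbers of reads were inferred from these, and their 95% intervals cover counting error only. Summed FPKM was 589238 in the untreated and 480455 in the DAC library, and the median DAC/untreated ratio was 0.912 over the 11292 symbols that reached 1 FPKM in each. Of markers of mesenchymal-like breast lines, VIM was at 3066 FPKM in the untreated and 1134 FPKM in the DAC library. AXL was at 400 and 127 FPKM, CD44 at 212 and 139 FPKM and MSN at 353 and 208 FPKM. These were lower in the DAC library, whereas SPARC was at 2.09 and 11.3 FPKM. The luminal genes ESR1 and PGR were at 0 in the untreated and under 0.1 FPKM in the DAC library. The luminal and epithelial genes CDH1 (0 and 0.179 FPKM) and GATA3 (0.795 and 1.71 FPKM) were low, and EPCAM was at 7.90 and 9.78 FPKM. The luminal keratins KRT8 (154 and 141 FPKM) and KRT18 (174 and 164 FPKM) were also high. Of 10 markers of blood cells, fibroblasts and endothelial cells the highest in the untreated library was COL1A1, at 0.853 FPKM, and it was the only one above 0.3 FPKM in the DAC library, at 15.6 FPKM.

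In MDA-MB-231, RGMB was lower after DAC, and none of the other 4 members that reached 1 FPKM in a library (NEO1, NTN4, DAPK1 and DAPK3) changed by more than 2-fold. Another 5 members (RGMA, NTN1, UNC5A, UNC5B and DAPK2) stayed under 1 FPKM in both libraries. A gene was called higher when its DAC/untreated ratio was above 2, or lower when it was under 0.5. On this rule 0 of the 5 members were higher, where 10.8% of the 12525 symbols past the filter were, and 1 of 5 was lower, against 4.82%. Neither share was matched for level. The bounds of the 2 libraries overlapped in all 10 members, and did not in 1.43% of symbols past the filter. Over the 10 members the ratio was above 1 in 7 and under 1 in 3, where 56.9% of all symbols past the filter were under 1. That count of members includes those that stayed under the filter. The counting intervals of the ratios of RGMA, NTN1 and UNC5A included 1. In such bulk RNA, fewer cells with a transcript and less of it per cell cannot be told apart.

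**Figure D2:**
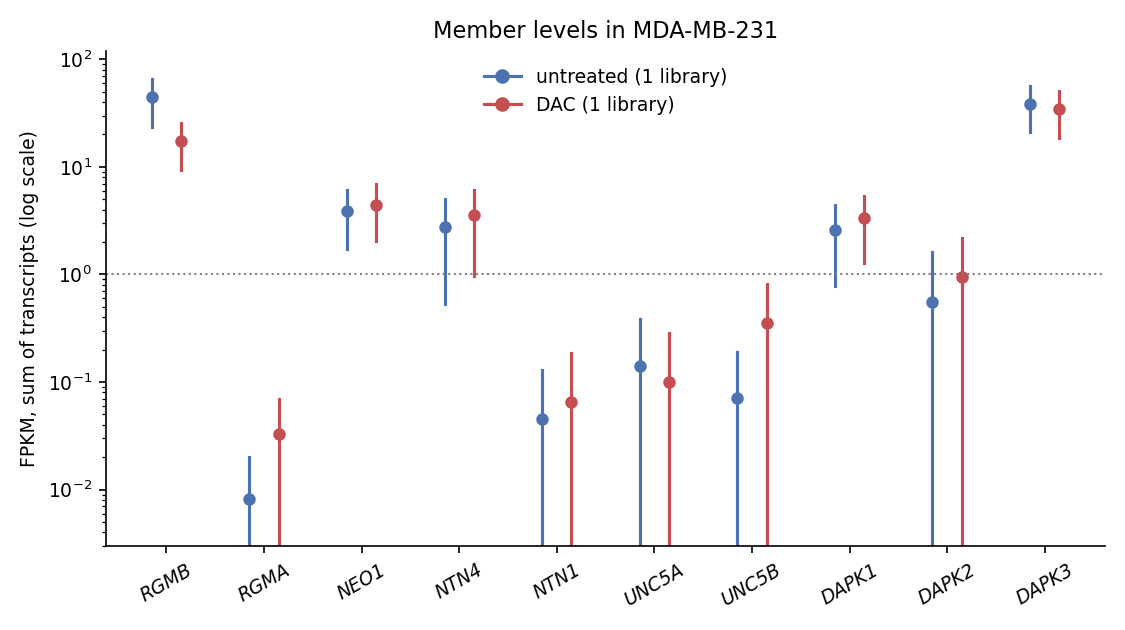
FPKM of the 10 members (log scale, sum of transcripts) in the untreated (blue) and DAC-treated (red) MDA-MB-231 library, 1 library each. Lines are Cuffdiff's bounds of the largest transcript, lower bounds under 0.003 are cut at the axis, and the dotted line marks 1 FPKM. RGMB dropped from 44.7 to 17.5 FPKM with overlapping bounds, while DAPK3 was at 38.7 and 34.4 FPKM.

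RGMB (chr5:98104354-98134347 on hg19, plus strand) was the most abundant member in untreated cells. Its level was 44.7 FPKM (bounds 23.3 to 66.1) in the untreated library and 17.5 FPKM (bounds 9.34 to 25.6) in the DAC library. It was thus 2.56-fold lower after DAC, a log2 ratio of -1.35. This rests on 8334 reads in the untreated and 3241 in the DAC library (ratio 0.391, 95% counting interval 0.376 to 0.408). Only 2.40% of the symbols past the filter had a smaller ratio. Divided by the median ratio of the symbols that reached 1 FPKM in both libraries (0.912), its ratio was 0.429.

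An antisense RNA inside RGMB was lower as well. The transcript listed as FLJ35946 is RGMB-AS1 by its RefSeq accession, and lies on the minus strand within the first part of RGMB (chr5:98105322-98109173 on hg19). It was at 8.15 FPKM (bounds 0 to 22.3) in the untreated and 2.55 FPKM (bounds 0 to 7.36) in the DAC library, with 635 and 197 reads. Its level was 3.20-fold lower after DAC, and 1.28% of symbols had a smaller ratio. In the annotation 84 of its 2358 exonic bases are shared with exons of RGMB. The strand of the reads is not stated, so reads from RGMB and from its antisense partner cannot be told apart where they overlap.

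RGMA (chr15:93578501-93632440, minus strand), another RGM, was close to absent. The sum of its 6 transcripts was 0.00821 FPKM in the untreated and 0.0331 FPKM in the DAC library, which correspond to 1 and 4 reads. The ratio of 4.03 has a 95% counting interval from 0.398 to 198, so that no difference was detectable at this depth. HFE2, which encodes hemojuvelin, a further RGM that is not among the 10 members, was at 0 FPKM in both libraries.

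NEO1 (chr15:73344051-73597546, plus strand), the receptor of both RGMs and netrins, was at 3.92 FPKM (bounds 1.72 to 6.12) in the untreated and 4.45 FPKM (bounds 2.04 to 6.87) in the DAC library. The ratio was 1.14 (95% counting interval 1.05 to 1.23, from 1143 and 1291 reads). The bounds overlapped almost completely. Nearly all of the level, 99.99% in both libraries, was assigned to the 7055-base transcript NM_001172624. The 7088-base NM_002499 received 0.00024 FPKM in the untreated and 0.00028 FPKM in the DAC library, and the 6929-base NM_001172623 was listed at 0. The 7055-base form is 33 bases shorter than the 7088-base form. A coding exon of that length (chr15:73567033-73567065 on hg19) is present in 3 of 5 coding transcripts of the annotation. It was matched by length alone, and is shown as the likely difference between the 7055-base and 7088-base forms.
NEO1 exon: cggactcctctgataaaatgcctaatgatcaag

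NTN4 (chr12:96051583-96184967, minus strand), a basement membrane netrin that binds laminin, was the more abundant netrin. Its level was 2.77 FPKM (bounds 0.537 to 4.99) in the untreated and 3.54 FPKM (bounds 0.972 to 6.12) in the DAC library. The ratio of 1.28 (95% counting interval 1.12 to 1.46, from 402 and 512 reads) did not reach 2-fold, and the bounds overlapped. NTN1 (chr17:8924827-9147317, plus strand), the ligand after which the pathway is named, was at 0.0449 FPKM in the untreated and 0.0657 FPKM in the DAC library. These correspond to 11 and 16 reads, and the counting interval of the ratio of 1.46 (0.638 to 3.49) included 1. PGAM1P5, a pseudogene transcript at the NTN4 locus, had 0.0847 and 0.0244 FPKM, or 7 and 2 reads.

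UNC5B (chr10:72972327-73062621, plus strand) was at 0.0705 FPKM in the untreated and 0.355 FPKM in the DAC library. The 20 and 100 reads behind these values give a ratio of 5.03 (95% counting interval 3.09 to 8.59), the largest of the members with more than 10 reads in each library. Both values were under 1 FPKM, so UNC5B was not counted as called, and its ratio was 1.27 with 1 FPKM added to both values and 2.67 with 0.1 FPKM added. In addition, the bounds of its main transcript (0 to 0.192 and 0 to 0.821 FPKM) overlapped. The 6857-base transcript NM_001244889 took 97.92% of the level in the untreated and 99.59% in the DAC library. It is 33 bases shorter than NM_170744, the length of a coding exon at chr10:73048715-73048747 on hg19. As for NEO1, this exon was matched by length alone.
UNC5B exon: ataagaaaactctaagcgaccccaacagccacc

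UNC5A (chr5:176237520-176307899, plus strand), a receptor of the same family, had 21 and 15 reads, or 0.14 FPKM in the untreated and 0.10 FPKM in the DAC library. The ratio of 0.719 had a counting interval from 0.345 to 1.46. The antisense RNA UNC5B-AS1 was at 0 FPKM in both MDA-MB-231 libraries. HK3, whose locus touches UNC5A, had 1 read in the untreated and 0 in the DAC library.

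DAPK3 (chr19:3958451-3971121, minus strand), a kinase of myosin light chain and its phosphatase, was the most abundant kinase. It was at 38.7 FPKM (bounds 21.0 to 56.4) in the untreated and 34.4 FPKM (bounds 18.4 to 50.3) in the DAC library. Its ratio of 0.888 (95% counting interval 0.843 to 0.935, from 3137 and 2768 reads) was 0.973 once divided by the median ratio. DAPK1 (chr9:90112143-90323549, plus strand) was at 2.60 FPKM (bounds 0.785 to 4.42) in the untreated and 3.34 FPKM (bounds 1.28 to 5.40) in the DAC library. With 636 and 812 reads its ratio was 1.29 (95% counting interval 1.16 to 1.43). DAPK2 (chr15:64199235-64364232, minus strand), a smaller kinase of the family, was at 0.552 FPKM and 0.945 FPKM, just under the filter after DAC. Its 57 and 97 reads gave a ratio of 1.71 (1.22 to 2.42). MIR637, a microRNA precursor of 99 bases inside DAPK3, was listed at 53.9 and 27.1 FPKM with bounds of 0 to 743 and 0 to 494, a length too short for the number of reads to be inferred.

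The order of the levels per length was RGMB, DAPK3, NEO1, NTN4, DAPK1, DAPK2, UNC5A, UNC5B, NTN1 and RGMA in the untreated library. After DAC, DAPK3 stood above RGMB and UNC5B above UNC5A. The only neighbours whose bounds did not overlap were DAPK3 and NEO1 in the untreated library (9.88-fold apart) and RGMB and NEO1 in the DAC library (3.93-fold apart). All other neighbours could not be separated by their bounds.

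**Figure D3:**
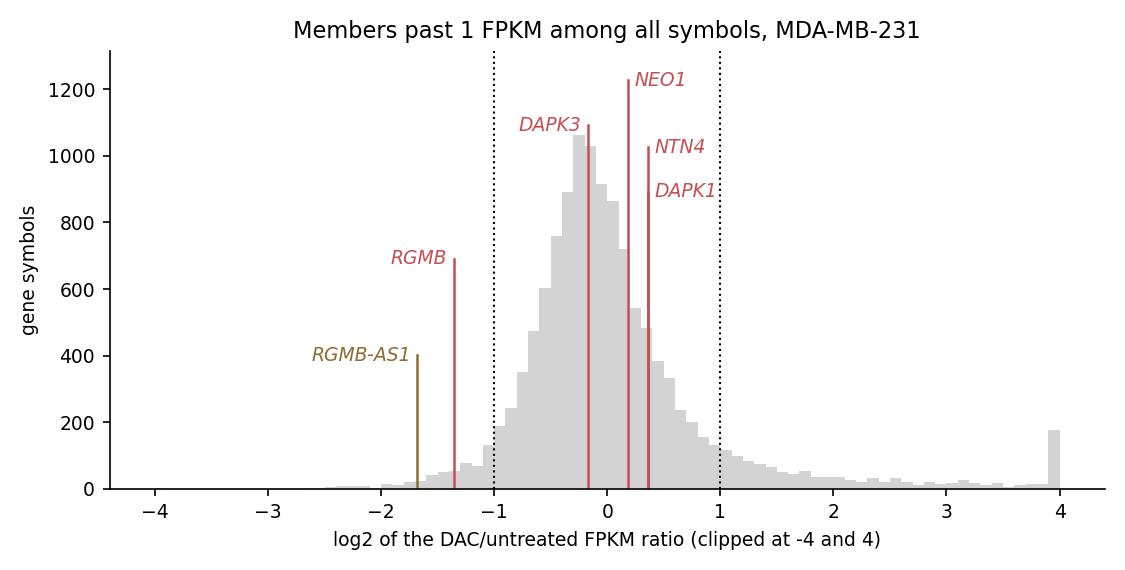
Distribution of the log2 DAC/untreated ratio in MDA-MB-231 (x axis, clipped at -4 and 4) over 12339 symbols past the filter (grey, y axis, number of symbols), without 186 symbols listed at 0 in 1 library. Lines mark the 5 members past the filter and RGMB-AS1, and dotted lines 2-fold, past which only RGMB and RGMB-AS1 of these lie (ratios 0.391 and 0.312).

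The HMLER table lists only transcripts that were higher after DAC (2009 transcripts, smallest ratio 2.001 and smallest DAC value 1.003 FPKM), with 1 value per condition merged by the authors over 2 libraries and therefore no spread. Of the 10 members, DAPK1 alone was listed, whereas 7.85% of the MDA-MB-231 symbols were. Past the 1 FPKM filter in MDA-MB-231, 1362 of 12525 symbols were listed, and DAPK1 among the 5 members past it. For the other 9 members no HMLER value was analysed here, since a gene not listed may have been lower, unchanged or too low. In HMLER cells DAPK1 went from 0.0419 FPKM without to 1.61 FPKM with DAC, a ratio of 38.4, ranked 141 of the 2009 transcripts by ratio. With DAC, 14.63% of the listed transcripts had a smaller value than DAPK1, so a large ratio stood beside a low level. The tables were normalized separately, and in MDA-MB-231 the same gene went from 2.60 to 3.34 FPKM. UNC5B-AS1 (chr10:72976977-72978051 on hg19, minus strand) was listed at 0.787 and 8.65 FPKM in HMLER, a ratio of 10.99 and rank 346. It lies within UNC5B and shares 0 exonic bases with it. UNC5B itself was not listed.

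**Figure D4:**
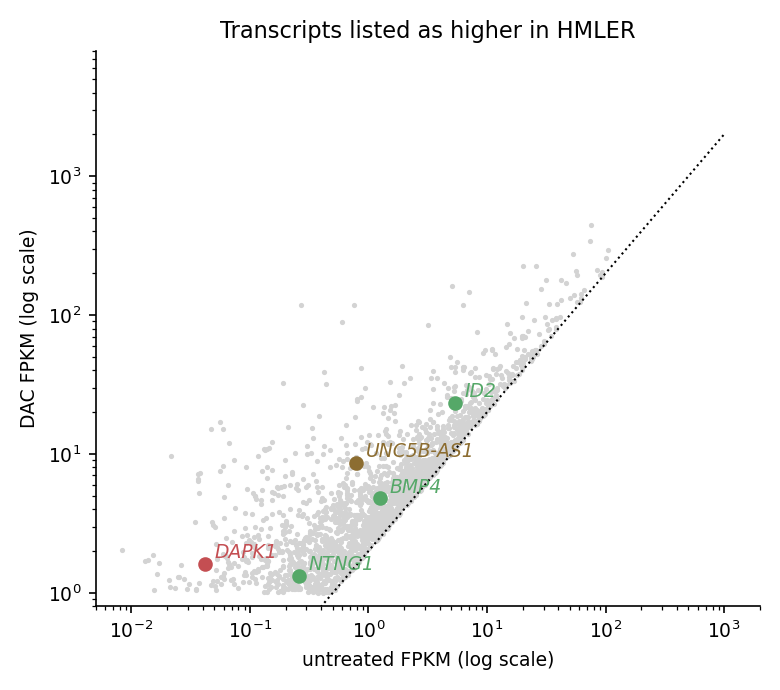
Untreated (x axis) and DAC (y axis) FPKM, both log scales, of the transcripts listed as higher in HMLER with an untreated value above 0 (grey points; dotted line, 2-fold). DAPK1 (0.0419 to 1.61 FPKM) and UNC5B-AS1 (0.787 to 8.65 FPKM) are marked with 3 partner genes, NTNG1, BMP4 and ID2.

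The genes whose pair of log2(FPKM + 1) changes in both lines lay nearest to that of DAPK1 (0.27 in MDA-MB-231 and 1.32 in HMLER), out of 1362 symbols listed in HMLER and at 1 FPKM or more in MDA-MB-231, were ZNF274 (0.27 and 1.35), ZFAND2A (0.29 and 1.29) and OXTR (0.31 and 1.28). The distance in these units was 0.024, 0.037 and 0.056. ZNF274 encodes a zinc finger repressor and OXTR the oxytocin receptor. The likeness is in log2(FPKM + 1) only, which understates the change of a low gene such as DAPK1. In HMLER, DAPK1 went from 0.0419 to 1.61 FPKM, a ratio of 38.4. ZNF274 went from 5.835 to 16.39 FPKM, ZFAND2A from 15.13 to 38.5 FPKM and OXTR from 0.8263 to 3.446 FPKM, all far smaller ratios. These values describe likeness over 1 pair of libraries and 1 merged pair only.

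Partners of these genes were then examined in 5 lists, whose counts are set beside the shares over all symbols. These shares were not matched for the level of the genes. An HMLER value given for a partner is that of a listed transcript and not of the whole gene. The 11 other netrins and netrin receptors, among them DCC, UNC5C and UNC5D, were all under 1 FPKM in both MDA-MB-231 libraries. NTNG1, a membrane-bound netrin, was listed at 0 in the untreated and at 0.779 FPKM in the DAC library, and was the only one listed in HMLER, at 0.258 and 1.32 FPKM. NTNG2 was at 0.163 and 0.597 FPKM.

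Of 25 signalling partners of netrin receptors past the filter, 2 were higher (8.0%, against 10.8% of all symbols) and 2 lower (8.0%, against 4.82%), with a median ratio of 0.834 against 0.938 over all symbols. SRC, a kinase recruited by DCC, was at 7.43 FPKM (bounds 3.30 to 11.6) in the untreated and 19.2 FPKM (bounds 10.3 to 28.1) in the DAC library. TRIM9, a ubiquitin ligase that acts in netrin-dependent axon branching, was at 0.362 and 2.33 FPKM. DOCK1, an activator of RAC1, was 5.53-fold lower, at 18.7 FPKM (bounds 10.2 to 27.2) against 3.39 FPKM (bounds 1.35 to 5.42). It was the only partner called, over all lists, whose bounds did not overlap. That is 1 of 91 partners past the filter, near the 1.43% of all symbols past it. NCK2, an adaptor, was at 18.3 and 8.05 FPKM. XIAP, an inhibitor of caspases, RAC1 and ENAH were listed in HMLER, XIAP at 0.392 and 1.13 FPKM.

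Among 9 laminins and integrins that bind netrins, 0 were higher (10.8% of all symbols) and 2 lower (22.2%, against 4.82%), with a median ratio of 0.735. The integrin chains ITGA3 (120 FPKM against 51.6 FPKM) and ITGA6 (54.0 FPKM against 22.9 FPKM) were lower, and both had overlapping bounds. No gene of this list was listed in HMLER. The laminin chains LAMB1 (39.6 and 50.2 FPKM) and LAMC1 (26.4 and 19.4 FPKM) did not pass 2-fold.

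Of 26 partners of neogenin, RGMs and BMPs past the filter, 3 were higher (11.5%, against 10.8% of all symbols) and 4 lower (15.4%, against 4.82%), with a median ratio of 0.758. BMP4, a ligand for which RGMs are co-receptors, was at 3.19 and 17.7 FPKM. ID2 (0.587 and 5.52 FPKM) and SMAD6 (0.451 and 2.03 FPKM), a BMP target and an inhibitor of BMP signalling, were also higher. ID1, another BMP target, was 2.91-fold lower, at 138 FPKM in the untreated and 47.7 FPKM in the DAC library. HFE, a regulator of iron uptake (4.25 and 1.38 FPKM), PCSK6, a proprotein convertase (1.74 and 0.535 FPKM), and RASA1, a RAS GTPase-activating protein (32.2 and 15.3 FPKM), were lower as well. BMP4 and ID2 were listed in HMLER too, at 1.26 and 4.79 FPKM and at 5.41 and 23.4 FPKM, as were BMP2 (0.416 and 1.84 FPKM), SMAD7 (1.77 and 4.89 FPKM) and RASA1. All bounds of the 7 genes called overlapped between the MDA-MB-231 libraries.

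Of 31 relatives, partners and substrates of DAP kinases past the filter, 0 were higher (10.8% of all symbols) and 2 lower (6.45%, against 4.82%), with a median ratio of 0.826. ATF4, a stress-response transcription factor, was at 161 and 80.3 FPKM, a difference at the very edge of the 2-fold rule. RPL13A, a ribosomal protein released from the ribosome downstream of DAPK1 and DAPK3, was at 442 and 191 FPKM. The myosin light chain kinase MYLK, MYL9, PPP1R12A and TPM1 were listed in HMLER, TPM1 at 33.6 and 120 FPKM. Over all lists 5 of 91 genes were higher (5.49%, against 10.8% of all symbols) and 10 were lower (10.99%, against 4.82%). Their median ratio was 0.790 against 0.938. With 1 FPKM or more in both libraries, 494 of 11292 symbols were higher and 466 lower, and 2 and 9 partner genes. In HMLER 13 of 113 were listed (11.5%, against 7.85%). That 7.85% includes symbols under the filter, whereas 91 of the 113 partners were past it. Past the filter, 11 of 91 partners and 1362 of 12525 symbols were listed.

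**Figure D5:**
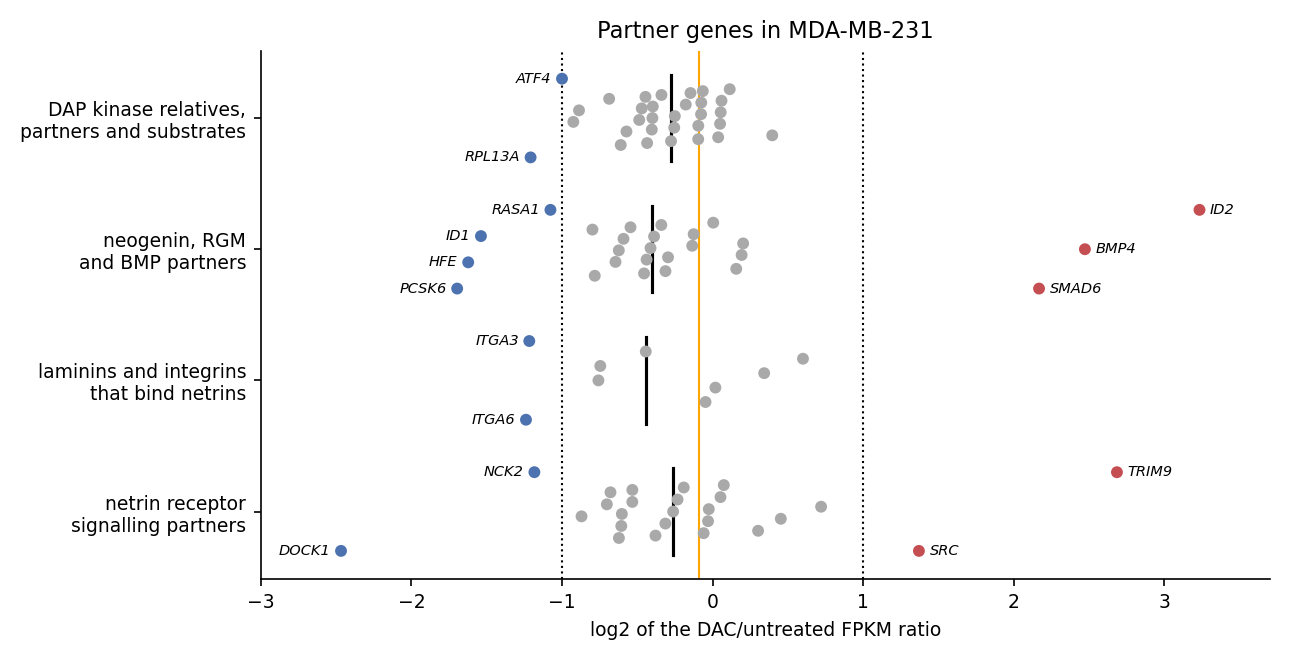
log2 DAC/untreated ratio in MDA-MB-231 (x axis) of partner genes past the filter in 4 lists (y axis; points spread vertically for legibility; red higher, blue lower, grey neither). Black bars are list medians, all to the left of the orange line, the median of all symbols (-0.09), and dotted lines mark 2-fold, past which DOCK1 lies farthest to the left and ID2 farthest to the right.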

How the data were processed

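RNA of 6 libraries had been prepared with an Illumina TruSeq RNA kit. Alignment by the authors was to hg19, with TopHat2, and they deposited FPKM values per RefSeq transcript, made with Cuffdiff (versions and library scaling not given in the sources used here). The MDA-MB-231 table has FPKM per library with bounds. The HMLER table has 1 FPKM per condition for transcripts that were higher. The fold changes, p-values and q-values of the authors, deposited in these tables, were not used. No column of an unmapped sample was found.

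Transcripts were summed per symbol. A ratio above 2 or under 0.5 was called where 1 FPKM or more was reached in at least 1 library, with no pseudocount, except a pseudocount of 1 in log2(FPKM + 1), which understates the change of low genes. Reads were inferred with an effective length of the transcript minus 200 bases, to within 0.1 of a whole read in 100% of 967 and 1080 low values, from transcripts over 2000 bases that were alone at their symbol and locus. Counting intervals are exact binomial (95%). No test was run, since the values are not counts and each condition has 1 library or 1 merged value. Steps were tested on simulated data. Genes named were all members with their transcripts, genes whose locus overlaps theirs, partner genes called or listed in HMLER (up to 4 of each per list), and the 3 genes nearest to DAPK1; the other partners and markers given were chosen after their values were seen. The members and lists were chosen with earlier results of these data known. Positions are from GENCODE lifted to GRCh37, the assembly of hg19, and promoters from RefSeq. Alternatives were other filters, pseudocounts, median scaling, the largest transcript, status OK and bounds. Work was done in Python 3.11.15 with scipy 1.17.1, pandas 2.3.3, numpy 2.4.6 and matplotlib 3.10.9.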

Additional observations from a re-analysis of the deposited data

Results flagged for a closer look

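Of 13 partner genes listed as higher after DAC in HMLER, 11 were past the filter in MDA-MB-231, and 4 of these had a ratio under 1 there. A ratio under 1 was found in 25.6% of the 1362 symbols listed in HMLER and past the filter, and in 56.9% of all 12525 symbols past it. The difference between the lines was not tested, and the tables were normalized separately. The MDA-MB-231 ratio is of the sum of a gene's transcripts, whereas the HMLER values are those of 1 transcript, listed because it was higher, so the quantities are unlike. RASA1, a RAS GTPase-activating protein, had a ratio of 0.474 over 2 transcripts in MDA-MB-231, and its transcript listed in HMLER was at 0.750 and 2.82 FPKM there and had a ratio of 0.365 in MDA-MB-231. RAC1 had a ratio of 0.659 over 2 transcripts, and its transcript was at 10.7 and 21.98 FPKM in HMLER with a ratio of 0.863 in MDA-MB-231. PPP1R12A, the targeting subunit of myosin phosphatase, had a ratio of 0.841 over 5 transcripts, and its transcript was at 2.31 and 6.73 FPKM in HMLER with a ratio of 0.762 in MDA-MB-231. MYLK had a ratio of 0.936 over 6 transcripts, but the transcript listed in HMLER, at 4.94 and 14.2 FPKM, had a ratio of 1.09 in MDA-MB-231, so the same transcript did not go in opposite directions. These contrasts have no replicate check.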

How the results depend on the processing

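No paired analysis was possible because the deposited HMLER values are merged over libraries and MDA-MB-231 cells gave only 1 library in each condition, and leaving out each replicate in turn was not run either. In MDA-MB-231, with no filter the members higher were 2 (RGMA and UNC5B), the partner genes higher 14, and the symbols higher and lower 5193 and 1080. With 1 FPKM in both libraries, 2 partner genes and 494 symbols were higher, and with 5 FPKM in at least 1 library 3 and 465. With 1 FPKM added, 863 symbols were higher. Asking for bounds that do not overlap left 0 members lower, 0 partner genes higher and 1 lower, and 118 symbols higher and 35 lower. In HMLER, at 5 FPKM in at least 1 condition 0 members, 6 partner genes and 855 symbols were listed, and at 1 FPKM in both 0, 8 and 961. The cause was not tested. Of the 63 alternatives to these counts, 43 stayed within 1.5 times the main count. Some of these had little room to move. The main counts of members were 0 or 1, and status OK left the counts of members and partner genes as they were. The 50 alternatives to the members' ratios were other pseudocounts, median scaling, the largest transcript and status OK. No ratio crossed 1, but most of these alternatives could not have made one cross. Adding the same value to both libraries cannot take a ratio across 1, and status OK left every ratio as it was. The largest transcript can differ from the sum only in RGMA, NEO1 and UNC5B, which have more than 1 transcript. RGMB stayed under 0.5 in all of its own alternatives. Adding 1 or 0.1 FPKM took UNC5B from 5.03 to 1.27 or 2.67 and RGMA from 4.03 to 1.03 or 1.23. Read depth limits RGMA, NTN1 and UNC5A, and the split of UNC5B between its forms.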
